A study of Mus musculus with 6 samples.

Results

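Mef2a, Mef2c and Mef2d, genes of the myocyte enhancer factor 2 family, were followed through 6 mouse RNA-seq libraries. They were taken by symbol from the 38924 genes of the deposited tables, and all 3 were among the 17116 genes that passed the expression filter. The labelled question was how the transcriptome of induced myogenic progenitor cells (iMPCs), which are made from fibroblasts, compares with that of satellite cells, which are muscle stem cells. Poly(A)-selected RNA was sequenced from iMPCs sorted as positive or as negative for a nuclear green fluorescent reporter of Pax7 (Pax7-nGFP; 1 library each), from activated satellite cells (ASC; 1 library), from mouse embryonic fibroblasts (MEF; 1 library) and from quiescent satellite cells (QSC; mouse 1 and mouse 3, 1 library each). The ASC library is titled ASCmyo-Pax7-plus-p1 and described as activated satellite cells. Per the labels' shared protocol, expanded iMPC cultures were kept off doxycycline in a medium with forskolin, which raises cAMP, RepSox, a TGF-beta receptor inhibitor, and a GSK3 inhibitor. The medium of the ASC and MEF libraries is not given, and the fibroblasts that gave these iMPCs may have been embryonic or from the tail tip, since the labels mention both. Strain and age are not stated in the labels.

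Mef2 proteins are MADS-box transcription factors that bind an A/T-rich DNA element and, in muscle, act together with the E-box binding factors Myod1 and Myog to switch on contractile and metabolic genes. Their activity is held down by class IIa histone deacetylases and raised by kinases that phosphorylate either the factors or those deacetylases. In skeletal muscle, Mef2c is known as a gene induced during differentiation, whereas Mef2a and Mef2d are expressed more widely.

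The Mef2 element and the E-box in the promoters of the family are shown first, as a description. Neither set apart Mef2a and Mef2c, the 2 genes called higher in ASC than in QSC. Mef2d, which was not called, lacked the element like Mef2c and the E-box like Mef2a. Promoter windows of 250 bases before to 50 bases after an annotated start came from RefSeq on GRCm38.p6, and all 3 genes matched, with 5 windows in all. Both strands were searched for the MEF2 consensus, given here by name, and for the E-box CANNTG, which reads the same on both strands; the 2 did not overlap in these windows. The Mef2a window lies at chr7:67372809-67373108 on the minus strand, and its capitals mark its MEF2 consensus match, CTAAAAATAG, which spans base -2 to base 8 counted from the start. The windows of Mef2c starts 1 and 3, of 3 in all, lie on the plus strand at chr13:83503784-83504083 and chr13:83573357-83573656, and their capitals mark E-boxes.
Mef2a: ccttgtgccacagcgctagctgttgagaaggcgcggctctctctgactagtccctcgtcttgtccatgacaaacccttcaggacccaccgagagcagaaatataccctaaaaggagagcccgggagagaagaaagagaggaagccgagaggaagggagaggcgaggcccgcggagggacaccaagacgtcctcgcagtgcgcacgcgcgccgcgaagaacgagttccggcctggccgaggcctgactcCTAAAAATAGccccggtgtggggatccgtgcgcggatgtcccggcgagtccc
Mef2c start 1: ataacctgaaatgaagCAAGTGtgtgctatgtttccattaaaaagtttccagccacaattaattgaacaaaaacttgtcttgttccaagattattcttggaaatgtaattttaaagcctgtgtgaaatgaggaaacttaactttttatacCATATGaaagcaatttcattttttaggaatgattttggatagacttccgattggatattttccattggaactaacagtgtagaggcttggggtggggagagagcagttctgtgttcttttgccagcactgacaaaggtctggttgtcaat
Mef2c start 3: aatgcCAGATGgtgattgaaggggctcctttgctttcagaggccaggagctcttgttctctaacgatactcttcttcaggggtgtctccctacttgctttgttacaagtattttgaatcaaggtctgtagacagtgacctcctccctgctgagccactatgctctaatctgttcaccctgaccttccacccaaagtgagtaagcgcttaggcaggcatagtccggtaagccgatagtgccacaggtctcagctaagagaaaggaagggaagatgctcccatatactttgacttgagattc
CTAAAAATAG occurred in 36 of 32851 promoters of the same length (0.11%), the MEF2 consensus in 1047 (3.19%) and an E-box in 23756 (72.3%). Neither the 3 Mef2c windows nor the Mef2d window, at chr3:88142122-88142421 on the plus strand, held a MEF2 consensus match. The window of Mef2c start 2, at chr13:83523406-83523705 on the plus strand, and the Mef2d window also held no E-box. A match describes letters only, and gene-level counts do not show which Mef2c start was used.

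Library totals ran from 20859611 to 29279686 counts, with 18309 to 19545 genes detected. Levels are CPM, counts relative to the library total, scaled by the trimmed mean of M values (TMM). Scaling by library size instead moved the median log2 change of all genes against QSC to 0.60 in Pax7-positive iMPCs, 0.86 in Pax7-negative iMPCs, 0.59 in ASC and 0.61 in MEF, against -0.03, 0.15, 0 and 0 with TMM. The labelled cell types were checked by marker genes: Pax7 stood at 37.8 CPM in Pax7-positive iMPCs, 6.25 in Pax7-negative iMPCs, 19.8 in ASC and 0 in MEF, against 34.5 in QSC mouse 1 and 160 in QSC mouse 3. Myod1 was highest in QSC mouse 1, at 1836 CPM, and stood at 630 CPM in QSC mouse 3. Its level was 719 CPM in Pax7-positive iMPCs, 404 in Pax7-negative iMPCs, 1029 in ASC and 0.598 in MEF. The QSC libraries were not alike in state, since mouse 1 had 38.4 CPM of the cycling gene Mki67 and 189 CPM of the differentiation gene Myog, against 0.317 and 4.07 CPM in mouse 3. The ASC library held 4413 CPM of the embryonic myosin gene Myh3, against 2.81 and 1.09 CPM in QSC mouse 1 and mouse 3, and its Pax7 was below that of both QSC mice. In these bulk samples, fewer cells of a type and less RNA per cell cannot be told apart. The QSC were freshly isolated, whereas the lone libraries came from cultured cells. Effects of cell state, isolation and culture therefore cannot be told apart in any comparison with QSC. Each lone library was assumed to vary like the QSC pair, so every p-value rests on the spread between 2 mice. That spread was mostly shared over genes, with 16.3 prior degrees of freedom against 1 residual. The difference between the mice in a single gene therefore had little weight.

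Mef2c (ENSMUSG00000005583) had the widest range of the family. It stood at 15.0 CPM in Pax7-positive iMPCs, 163 CPM in Pax7-negative iMPCs, 621 CPM in ASC and 10.8 CPM in MEF, against 5.20 CPM in QSC mouse 1 and 1.54 CPM in QSC mouse 3. ASC and Pax7-negative iMPCs were the high libraries, and each of the 4 lone libraries lay above both QSC mice. The counts behind these levels were 466, 4832, 14408 and 289 in the same order of lone libraries, against 109 and 34 in QSC mouse 1 and mouse 3. In rank terms, its RPKM lay at the 49.4th percentile of detected genes in Pax7-positive iMPCs, the 85.6th in Pax7-negative iMPCs, the 96.4th in ASC and the 44.9th in MEF, against the 38.9th and 21.8th in QSC mouse 1 and mouse 3. Mef2c thus ranked among the most abundant transcripts of ASC and in the lower part of the detected genes in QSC.

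Against QSC, Mef2c was called higher in 3 of the 4 comparisons. By edgeR's quasi-likelihood test with Benjamini-Hochberg adjustment over all tested genes, the log2 fold change was 7.53 ± 0.77 (SE; adjusted p = 4.83e-06) in ASC, 5.60 ± 0.72 (adjusted p = 5.13e-05) in Pax7-negative iMPCs and 2.15 ± 0.67 (adjusted p = 0.0296) in Pax7-positive iMPCs. In MEF the estimate was 1.68 ± 0.67 and missed the threshold (edgeR adjusted p = 0.0870). With QSC mouse 1 alone as the comparison the differences were 6.88, 4.95, 1.51 and 1.04 for ASC, Pax7-negative iMPCs, Pax7-positive iMPCs and MEF, and with mouse 3 alone 8.59, 6.66, 3.22 and 2.75. The Pax7-positive call was lost under library size scaling, at log2 2.85 and edgeR adjusted p = 0.0517, and its adjusted p ranged from 0.00421 to 0.0517 over all scalings, filters and models run. The QSC mice differed from each other 3.38-fold in Mef2c (95% counting interval 2.28 to 5.13, mouse 1 over mouse 3), and 12.7% of tested genes differed more between them. This counting interval, like the others given here, covers counting error only.

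**Figure D1:**
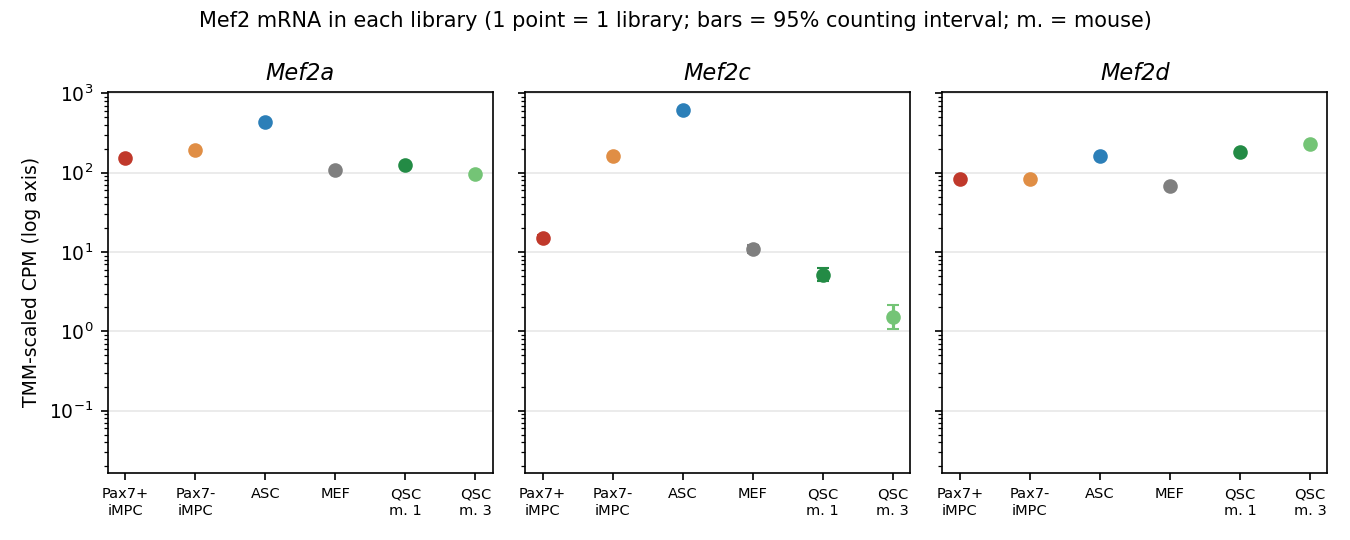
TMM-scaled CPM of Mef2a, Mef2c and Mef2d (log axis) in each library, 1 point per library, with 95% counting intervals that are mostly smaller than the points. Mef2c runs from 1.54 CPM in QSC mouse 3 to 621 CPM in ASC, whereas Mef2a and Mef2d keep within 68.3 and 431 CPM in every library.

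Mef2a (ENSMUSG00000030557) was called higher than QSC in ASC only. Its level was 151 CPM in Pax7-positive iMPCs, 195 CPM in Pax7-negative iMPCs, 431 CPM in ASC and 108 CPM in MEF, against 123 CPM in QSC mouse 1 and 95.9 CPM in QSC mouse 3. ASC was high, both iMPC fractions were above both QSC mice, and MEF lay between the mice. In ASC the log2 fold change was 1.97 ± 0.58 (SE; edgeR adjusted p = 0.0219), and it was 1.80 against mouse 1 and 2.17 against mouse 3. The values that missed the threshold were 0.83 ± 0.58 in Pax7-negative iMPCs (edgeR adjusted p = 0.336), 0.47 ± 0.59 in Pax7-positive iMPCs (edgeR adjusted p = 0.605) and -0.02 ± 0.60 in MEF (edgeR adjusted p = 0.993). The MEF value was positive with library size scaling (0.62) and without the expression filter (0.04). Mef2a overlaps Lysmd4 on the opposite strand in the GENCODE M21 annotation, and the strand setting of the counting is not given, although the library kit marked strand. Lysmd4 itself had 44 to 362 counts per library, against 2121 to 9996 for Mef2a.

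Mef2d (ENSMUSG00000001419) was the only one of the 3 that was highest in QSC on the TMM scale (by deposited RPKM, ASC was highest, at 58.5, against 42.0 and 55.7 in QSC mouse 1 and mouse 3), and none of its comparisons passed edgeR's test. It stood at 83.8 CPM in Pax7-positive iMPCs, 83.8 CPM in Pax7-negative iMPCs, 164 CPM in ASC and 68.3 CPM in MEF, against 183 CPM in QSC mouse 1 and 228 CPM in QSC mouse 3. On this scale all 4 lone libraries lay below both mice, with ASC nearest. The log2 fold changes were -1.29 ± 0.63 (edgeR adjusted p = 0.157) in Pax7-positive iMPCs and -1.29 ± 0.63 (edgeR adjusted p = 0.162) in Pax7-negative iMPCs. In ASC the estimate was -0.32 ± 0.60 (edgeR adjusted p = 0.742), which turned to 0.26 under library size scaling. In MEF the estimate was -1.59 ± 0.64 (edgeR adjusted p = 0.0913), and it passed with DESeq2, at -1.67 and adjusted p = 0.0270. Mef2d overlaps the antisense gene 1700113A16Rik, which had 2 to 139 counts per library, against 1827 to 5039 for Mef2d.

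Counted over the family, 1 of 3 genes was called up in Pax7-positive iMPCs, 1 of 3 in Pax7-negative iMPCs, 2 of 3 in ASC and 0 of 3 in MEF, and none was called down by edgeR. Of all tested genes, 11.3% were called up and 9.31% down in Pax7-positive iMPCs, 12.1% and 6.57% in Pax7-negative iMPCs, 11.8% and 8.24% in ASC, and 11.3% and 8.03% in MEF. These shares also stand beside the counts of called genes in the lists below. In MEF, Mef2c passed without the expression filter, at log2 1.74 and edgeR adjusted p = 0.0365, and at an unadjusted p under 0.05 the MEF count by edgeR was 1 up, Mef2c, and 1 down, Mef2d, against 1 call in all by DESeq2. The fourth family gene, Mef2b, had 0 to 2 counts in each lone library, against 13 in QSC mouse 1 and 0 in mouse 3, and no fold is given for it.

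**Figure D2:**
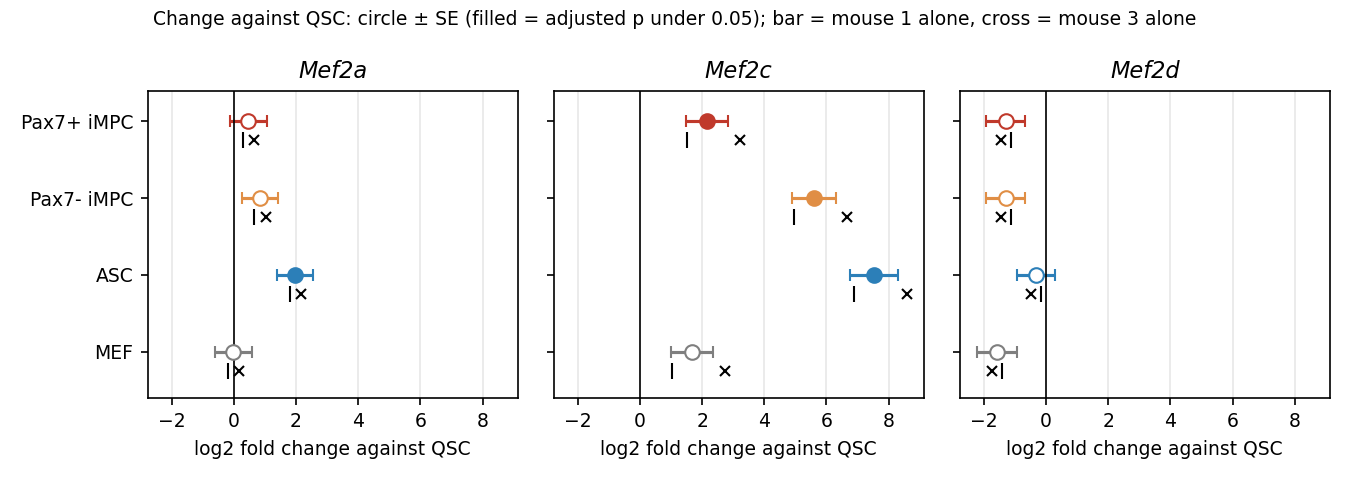
Log2 fold change against QSC of Mef2a, Mef2c and Mef2d in 4 lone libraries (circle with SE, filled where edgeR's adjusted p was under 0.05), with the difference from each QSC mouse alone below it (bar, mouse 1; cross, mouse 3). Mef2c in ASC, Pax7-negative and Pax7-positive iMPCs and Mef2a in ASC are filled, and the 2 mice lie farthest apart for Mef2c.

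Ratios of RPKM within a library do not depend on how libraries are scaled to each other, and RPKM allows for gene length. Mef2c RPKM was 0.0933 times Mef2a RPKM in Pax7-positive iMPCs, 0.789 times in Pax7-negative iMPCs, 1.36 times in ASC and 0.0943 times in MEF, against 0.0397 in QSC mouse 1 and 0.0151 in mouse 3. Mef2c therefore exceeded Mef2a in ASC alone, and the Pax7-positive iMPC ratio was close to the MEF ratio. Mef2d RPKM was 0.822 times Mef2a RPKM in Pax7-positive iMPCs, 0.638 times in Pax7-negative iMPCs, 0.566 times in ASC and 0.938 times in MEF, against 2.20 in QSC mouse 1 and 3.53 in mouse 3. Mef2d was thus the more abundant of these 2 transcripts in both QSC mice and the less abundant in each of the 4 lone libraries.

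The summed RPKM of the 3 genes was 73.8 in Pax7-positive iMPCs, 124 in Pax7-negative iMPCs, 302 in ASC and 54.5 in MEF, against 61.8 and 71.7 in QSC mouse 1 and mouse 3. Mef2c made up 4.87% of that sum in Pax7-positive iMPCs, 32.5% in Pax7-negative iMPCs, 46.5% in ASC and 4.64% in MEF, against 1.23% and 0.333% in QSC mouse 1 and mouse 3. Mef2d made up 42.9%, 26.3%, 19.3% and 46.2% in the same order of lone libraries, against 67.9% and 77.7% in QSC mouse 1 and mouse 3. The leading transcript was therefore Mef2d in QSC, Mef2a in both iMPC fractions and MEF, and Mef2c in ASC.

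**Figure D3:**
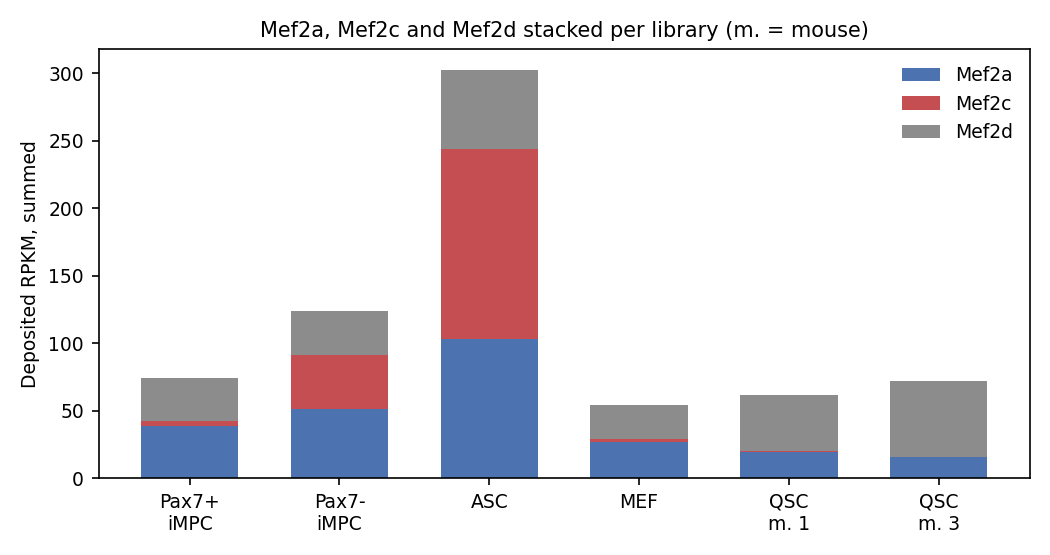
Deposited RPKM of Mef2a (blue), Mef2c (red) and Mef2d (grey) stacked for each library on an axis that starts at 0. The stack is tallest in ASC, at 302 RPKM, and Mef2c takes a visible share in ASC (46.5%) and Pax7-negative iMPCs (32.5%).

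Between libraries without a replicate there was no test, so differences were read by size: at least 4-fold, with at least 5 CPM in 1 of the 2 libraries. Between the 2 iMPC fractions, Mef2c was 10.9-fold lower in Pax7-positive than in Pax7-negative cells (95% counting interval 9.90 to 12.0). It was 1 of 736 genes past the rule as lower, 4.3% of those tested, while 0.134% passed as higher. Mef2d was level between the fractions, with a ratio of Pax7-positive to Pax7-negative of 1.00 (0.946 to 1.06), and Mef2a differed 1.29-fold (1.24 to 1.34, lower in Pax7-positive cells). Of the 3 genes, only Mef2c separated the sorted fractions by this rule.

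Relative to MEF, Mef2c was 1.39-fold higher in Pax7-positive iMPCs (1.20 to 1.61), 15.1-fold higher in Pax7-negative iMPCs (13.4 to 17.1) and 57.5-fold higher in ASC (51.1 to 64.8). The last 2 passed the rule of size, which 3.24% of genes passed as higher and 5.67% as lower in Pax7-positive iMPCs, 4.73% and 2.38% in Pax7-negative iMPCs, and 4.71% and 4.07% in ASC. Mef2a in ASC was 3.99-fold higher than in MEF, just short of the limit, and Mef2d was 2.40-fold higher there. Relative to ASC, Mef2c was 41.4-fold lower in Pax7-positive iMPCs (37.7 to 45.5), past the rule, as were 5.11% of genes (2.29% were higher), and 3.80-fold lower in Pax7-negative iMPCs (3.68 to 3.93), short of it, where 3.47% of genes passed as lower and 4.95% as higher. Both Mef2a, at 2.84-fold lower in Pax7-positive and 2.21-fold lower in Pax7-negative iMPCs, and Mef2d, at 1.96-fold lower in each fraction, were within the rule.

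Ordered by CPM and set against the log2 gap between the QSC mice, ASC and then Pax7-negative iMPCs stood apart at the top for Mef2c, with gaps of 1.93 and 3.44 to the next library against a mouse gap of 1.71. Pax7-positive iMPCs, MEF, QSC mouse 1 and QSC mouse 3 followed in falling order. The steps of 0.47 and 1.04 down to QSC mouse 1 were within that gap, and the last step is the gap itself. Pax7-positive iMPCs lay 3.22 above QSC mouse 3. For Mef2a the order was ASC, Pax7-negative iMPCs, Pax7-positive iMPCs, QSC mouse 1, MEF and QSC mouse 3, and ASC was apart, at 1.14 against a mouse gap of 0.364. Pax7-negative iMPCs also passed that gap, but only just, at 0.365 above Pax7-positive iMPCs. For Mef2d, QSC mouse 3, QSC mouse 1 and ASC formed the top. QSC mouse 1 lay 0.16 above ASC, within the mouse gap of 0.32, and ASC stood 0.97 above the iMPC fractions.

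Coactivators, which Mef2 proteins recruit to activate their targets, were read first among the other genes of the pathway. Of 6 coactivators, 2 were called up in Pax7-positive iMPCs (median log2 change 1.25, against -0.03 over all genes tested), 1 in Pax7-negative iMPCs (0.74, against 0.15), 1 in ASC (0.54, against 0) and, in MEF, 1 was called up and 2 down (-0.49, against 0). Against QSC mouse 1 and mouse 3 alone the medians were 1.95 and 0.86, 1.24 and 0.28, 0.95 and 0.25, and -0.02 and -0.83, in the same order of lone libraries. Myocd had no QSC count and only 3 counts each in Pax7-negative iMPCs and ASC, no more than the floor of 3 counts. With Myocd left out, the median was 0.02 in Pax7-negative iMPCs and -0.12 in ASC. The MEF median turned to 0.13 under library size scaling. Mamstr, a coactivator of Mef2 in muscle, rose in both iMPC fractions and in ASC, by log2 2.87 ± 0.68 in Pax7-positive iMPCs (edgeR adjusted p = 0.00723), 2.18 ± 0.68 in Pax7-negative iMPCs (edgeR adjusted p = 0.0331) and 2.12 ± 0.68 in ASC (edgeR adjusted p = 0.0359). The Pax7-negative and ASC calls of Mamstr each held under 2 of 6 alternatives, without the expression filter and with the preset coefficient of variation; both were lost under library size scaling, DESeq2-style size factors, DESeq2 and a minimum of 5 CPM, with adjusted p up to 0.0585 in Pax7-negative iMPCs and 0.0684 in ASC over the edgeR and DESeq2 fits. It fell in MEF, to 0.598 CPM, against 4.96 and 15.1 CPM in QSC mouse 1 and mouse 3. The MEF call was lost under library size scaling (edgeR adjusted p = 0.0727). Carm1, an arginine methyltransferase that acts with Mef2c, rose in Pax7-positive iMPCs by 2.01 ± 0.57 (edgeR adjusted p = 0.0190). Vgll2, a cofactor expressed in skeletal muscle, had 2 counts in MEF, a level 1350-fold below QSC (374 to 11152), whereas Myocd, a cofactor of smooth and cardiac muscle, was at least 20.4-fold higher in MEF than the floor of 3 counts over the QSC group, a call lost under library size scaling (edgeR adjusted p = 0.0677).

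Of 4 measured repressors, none was called in Pax7-positive iMPCs (median 0.62, against -0.03 over all genes tested), 2 rose in Pax7-negative iMPCs (1.49, against 0.15), 1 in ASC (1.22, against 0) and 2 in MEF (2.31, against 0). Against QSC mouse 1 and mouse 3 alone the medians were 0.76 and 0.91, 2.00 and 1.05, 1.85 and 0.79, and 2.26 and 1.88, in the same order of lone libraries. In Pax7-positive iMPCs the edgeR count was 1 at an unadjusted p under 0.05 and the DESeq2 count was 0 after adjustment, and 1 of the 4 was called when the expression filter was dropped or the coefficient of variation was preset. Hdac9, a class IIa deacetylase and itself a known Mef2 target, had 0.322 CPM in Pax7-positive iMPCs, 4.90 in Pax7-negative iMPCs, 9.22 in ASC and 5.49 in MEF, against 0.572 and 0 CPM in QSC mouse 1 and mouse 3. It rose by log2 4.09 ± 1.32 in Pax7-negative iMPCs (edgeR adjusted p = 0.0390), 5.00 ± 1.34 in ASC (edgeR adjusted p = 0.0140) and 4.25 ± 1.32 in MEF (edgeR adjusted p = 0.0317). Of 6 other scalings, filters and models, 4 ended the Hdac9 call in Pax7-negative iMPCs (adjusted p up to 0.0877 over the edgeR and DESeq2 fits), library size scaling ended it in ASC (edgeR adjusted p = 0.0671), and library size scaling and a minimum of 5 CPM ended it in MEF. Hdac7 rose in Pax7-negative iMPCs (2.41 ± 0.65, edgeR adjusted p = 0.0155) and in MEF (3.71 ± 0.66, edgeR adjusted p = 0.000907).

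Among 14 genes for kinases, calcineurin subunits and the partner NFAT factors, 2 were called up and 1 down in each iMPC fraction, 4 up and 1 down in ASC, and 3 up and 1 down in MEF. Over all tested genes, 11.3% were called up and 9.31% down in Pax7-positive iMPCs, and 12.1% and 6.57% in Pax7-negative iMPCs. The shares were 11.8% and 8.24% in ASC and 11.3% and 8.03% in MEF. The list medians were 0.03, 0.43, 0.39 and 0.52 for Pax7-positive iMPCs, Pax7-negative iMPCs, ASC and MEF, against -0.03, 0.15, 0 and 0 over all genes. The first list median turned to -0.03 with DESeq2-style size factors. Against QSC mouse 1 and mouse 3 alone the list medians were 0.12 and 0.02, 0.73 and 0.25, 0.85 and 0.23, and 0.75 and 0.20. Camk2b, a calcium/calmodulin-dependent kinase, rose in ASC by 4.79 ± 0.90 (edgeR adjusted p = 0.00116), to 33.6 CPM, against 1.19 and 1.22 CPM in QSC mouse 1 and mouse 3. Camk2g, of the same kinase family, rose in ASC by 3.37 ± 0.69 (edgeR adjusted p = 0.00229), in Pax7-negative iMPCs by 2.77 ± 0.68 (edgeR adjusted p = 0.00928), in Pax7-positive iMPCs by 2.48 ± 0.68 (edgeR adjusted p = 0.0161) and in MEF by 2.95 ± 0.68 (edgeR adjusted p = 0.00589). The calcineurin-regulated factor Nfatc2 fell in all 4 comparisons, to between 0.187 and 1.77 CPM in the lone libraries, against 20.7 and 48.3 CPM in QSC mouse 1 and mouse 3. With library size scaling that call was lost in Pax7-positive iMPCs, Pax7-negative iMPCs and ASC (edgeR adjusted p = 0.0551, 0.0556 and 0.0683). Its relative Nfatc3 rose in all 4, by 2.88 in Pax7-positive iMPCs, 2.45 in Pax7-negative iMPCs, 2.35 in ASC and 2.61 in MEF.

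Known Mef2 target genes, mostly for sarcomere, metabolic and stimulus-response proteins, were read as a list of 21, all measured. In Pax7-positive iMPCs 4 were called up and 4 down (median log2 change 0.16, against -0.03 over all genes tested). In Pax7-negative iMPCs 11 were called up and 3 down (2.44, against 0.15), and in ASC 15 up and 4 down (4.41, against 0). In MEF none was called up by edgeR, at an unadjusted p under 0.05 (0) or by DESeq2 (0), and 9 were called down (-2.53, against 0). That median was -2.45 with genes at 0 set to their bound and Hrc, below the floor in both groups, left out. Against QSC mouse 1 and mouse 3 alone the medians were 0.16 and 1.56 in Pax7-positive iMPCs, 1.77 and 3.58 in Pax7-negative iMPCs, 3.63 and 6.22 in ASC and -1.84 and -1.35 in MEF, and with a minimum of 5 CPM the Pax7-positive median was -0.0021. The up-called count was largest in ASC and next in Pax7-negative iMPCs, the 2 libraries with the most Mef2c mRNA. These 2 libraries also had the most mRNA of Mef2a and of Myog, which is itself on the list. A link between the calls and any of these genes was not tested. With library size scaling 6 were called up in Pax7-negative iMPCs, and in Pax7-positive iMPCs 7 were called up without the expression filter and 8 with the preset coefficient of variation. Tnnc1, which encodes a slow and cardiac troponin C, had 11.7 CPM in Pax7-positive iMPCs, 233 in Pax7-negative iMPCs, 1649 in ASC and 0.860 in MEF, against 1.19 and 0.678 CPM in QSC mouse 1 and mouse 3. It rose by log2 10.78 ± 0.80 in ASC (edgeR adjusted p = 4.13e-07), 7.96 ± 0.73 in Pax7-negative iMPCs (edgeR adjusted p = 4.11e-06) and 3.64 ± 0.65 in Pax7-positive iMPCs (edgeR adjusted p = 0.000911). Smyd1, a muscle histone methyltransferase, rose by 5.47 ± 0.69 in Pax7-positive iMPCs (edgeR adjusted p = 6.69e-05). Hrc, a calcium-binding protein of the sarcoplasmic reticulum, had 1 count over both QSC mice, and its count ratio to QSC was 37.4 in Pax7-positive iMPCs (6.17 to 1533), 307 in Pax7-negative iMPCs (54.5 to 12185) and 2532 in ASC (454 to 100076).

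The targets called down were of another kind. Jun, Klf6 and the orphan nuclear receptor gene Nr4a1, which are also known as immediate early genes, fell in all 4 comparisons, and Meg3, a long non-coding RNA, fell in Pax7-positive iMPCs and ASC. Since only the QSC were freshly isolated, cell state, isolation and culture cannot be told apart in these falls, and the part of Mef2 was not tested. Nr4a1 had 20.4 CPM in Pax7-positive iMPCs, 92.2 in Pax7-negative iMPCs, 7.32 in ASC and 39.8 in MEF, against 844 and 1648 CPM in QSC mouse 1 and mouse 3. Its log2 fold change was -5.93 ± 0.92 in Pax7-positive iMPCs (edgeR adjusted p = 0.000305), -3.76 ± 0.81 in Pax7-negative iMPCs (edgeR adjusted p = 0.0039) and -7.41 ± 0.99 in ASC (edgeR adjusted p = 5.26e-05). In ASC, Klf6 fell by 4.03 on the log2 scale (edgeR adjusted p = 0.00174), and in Pax7-negative iMPCs, Jun fell by 3.62 (edgeR adjusted p = 0.00544). With library size scaling, 2 targets were called down in ASC and 3 in MEF: Jun lost its call in both, Klf6 in Pax7-negative iMPCs and MEF, and Meg3 in Pax7-positive iMPCs and ASC. In MEF the muscle targets were among those called down, as Klhl40 had 0 counts, at least 111-fold lower than QSC by the floor of 3 counts, and Myog fell by 7.24 on the log2 scale (edgeR adjusted p = 0.00761), a call lost under library size scaling (edgeR adjusted p = 0.124).

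The 2 iMPC fractions also differed in this list. By the rule of size, 11 of the 21 targets were lower and none higher in Pax7-positive than in Pax7-negative cells, with a median log2 difference of -2.17, against -0.05 over all genes. Tnnc1 was lower by 4.31 on the log2 scale and Ckm, the muscle creatine kinase gene, by 4.01, while Des, which encodes desmin, had 2000 CPM in Pax7-positive and 1470 CPM in Pax7-negative cells. Against MEF, 7 targets were higher in Pax7-positive iMPCs, 13 in Pax7-negative iMPCs and 17 in ASC.

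RefSeq windows were found for 16 of the 21 targets, 17 windows in all, and 4 of the windows (23.5%) held the MEF2 consensus, against 3.19% of all promoters. The list was made of genes already known as Mef2 targets, so these shares are no independent test of the element. The matching stretches are shown because they carry the element that Mef2 proteins bind, in capitals with 10 flanking bases, on the gene's strand. Srpk3 is at chrX:73774328-73774357 (plus strand), Xirp2 at chr2:67445918-67445947 (plus), Klhl41 at chr2:69670047-69670076 (plus) and Jun at chr4:95052236-95052265 (minus). The element begins at base -67, -74, -63 and -33 from the start in that order.
Srpk3: agctgggaggCTATTTATAAaggcgagtga
Xirp2: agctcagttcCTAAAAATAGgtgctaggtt
Klhl41: gagccggtgtCTATATTTAGccggtgggat
Jun: acatcatgggCTATTTTTAGggattgactg
Xirp2 carries CTAAAAATAG, the form found at the Mef2a start. Srpk3, a muscle protein kinase gene, had 1.64 CPM in Pax7-positive iMPCs, 19.9 in Pax7-negative iMPCs, 84.7 in ASC and 0.112 in MEF, against 0.524 and 0.136 CPM in QSC mouse 1 and mouse 3. Klhl41, a sarcomere-assembly gene, had 4.38 CPM in Pax7-positive iMPCs, 32.1 in Pax7-negative iMPCs, 242 in ASC and 0.262 in MEF, against 3.24 and 0.0904 CPM in QSC mouse 1 and mouse 3. Jun went the other way, at 196, 170, 250 and 223 CPM in the same order of lone libraries, against 1830 and 2368 CPM in QSC mouse 1 and mouse 3. Of these 4 genes, Srpk3 and Klhl41 rose in Pax7-negative iMPCs and ASC and Xirp2 rose in ASC, whereas Jun fell in all 4 comparisons. Among these, library size scaling also ended the Klhl41 call in Pax7-negative iMPCs, and library size scaling, DESeq2 and a minimum of 5 CPM ended the Xirp2 call (adjusted p up to 0.142 over the edgeR and DESeq2 fits).

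**Figure D4:**
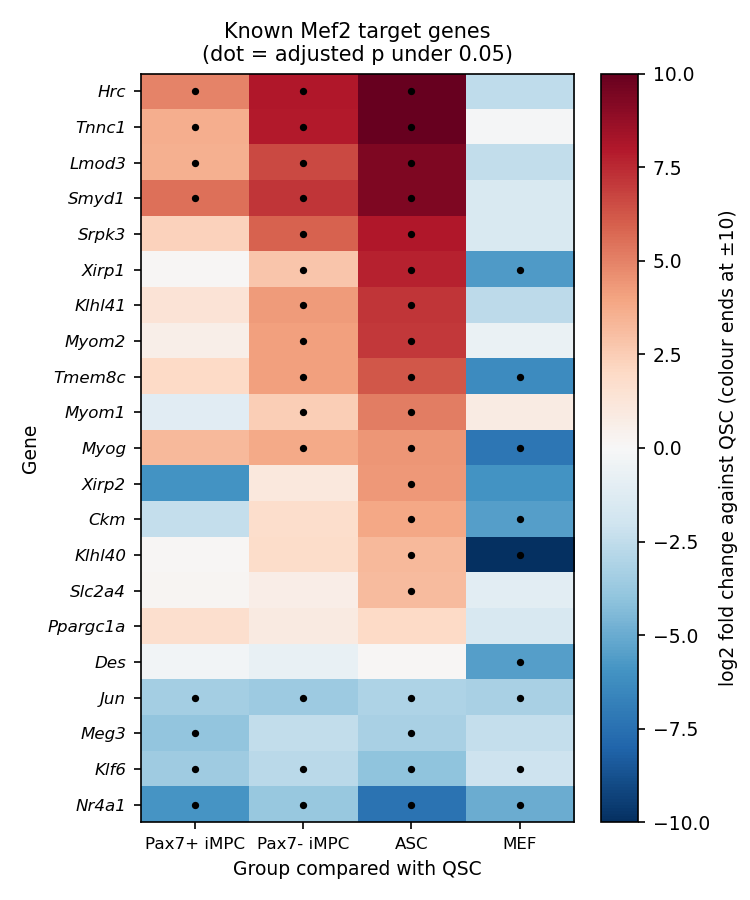
Fitted log2 fold change against QSC of 21 known Mef2 targets in Pax7-positive iMPCs, Pax7-negative iMPCs, ASC and MEF (red higher, blue lower, dot where edgeR's adjusted p was under 0.05), with colours ending at ±10. Called increases number 4, 11, 15 and 0 from left to right, and Jun, Klf6 and Nr4a1 are called lower in every column; for genes with few counts, such as Hrc, the fitted value depends on the prior count.

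Of 12 myogenic regulatory and satellite cell genes, which share Myog with the target list, none rose and 6 fell in Pax7-positive iMPCs, 1 rose and 7 fell in Pax7-negative iMPCs, 2 rose and 5 fell in ASC, and 12 fell in MEF. In Pax7-positive iMPCs the edgeR count of genes up was 1 at an unadjusted p under 0.05 and the DESeq2 count was 0, and in MEF both were 0. Myog, the regulator whose protein acts with Mef2, rose by 3.82 ± 1.14 in Pax7-negative iMPCs (edgeR adjusted p = 0.0263) and 4.41 ± 1.16 in ASC (edgeR adjusted p = 0.0120), and in ASC Myf6, another member of the MyoD family, rose by 3.38 ± 0.91 (edgeR adjusted p = 0.0140). The Myog call was lost in Pax7-negative iMPCs under library size scaling, DESeq2 and a minimum of 5 CPM, and in ASC under library size scaling and DESeq2, with adjusted p up to 0.292 and 0.195 over the edgeR and DESeq2 fits. Myog stood at 892 CPM in Pax7-positive iMPCs, 1358 in Pax7-negative iMPCs, 2055 in ASC and 0.635 in MEF, against 189 and 4.07 CPM in QSC mouse 1 and mouse 3. In the Pax7-positive fraction, Myog, at 892 CPM, was not called against QSC, whereas Mef2c, at 15.0 CPM, was called up. CPM does not allow for gene length, so these levels are not compared between the genes. Calcr, a receptor gene of quiescent satellite cells, had 0 counts in ASC, at least 811-fold lower than QSC. It had 1 count in Pax7-negative iMPCs, 3105-fold below QSC (557 to 122654). In Pax7-positive iMPCs Calcr had 8 counts, 407-fold below QSC (207 to 944), and in MEF 4 counts, 701-fold below QSC (274 to 2575). Reads of Calcr were thus nearly absent from all 4 lone libraries. Pax3, a paralog of Pax7, had 2 counts in Pax7-positive iMPCs, 599-fold below QSC (166 to 4951). In MEF, Pax7 had 0 counts, at least 881-fold lower than QSC, and Myf5 had 1 count, 2801-fold lower (503 to 110672).

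Mef2c is also expressed in endothelial and B cells, so markers of other cell types were summed beside it. The summed level of 11 endothelial markers was 12.6 CPM in Pax7-positive iMPCs, 52.5 in Pax7-negative iMPCs, 6.25 in ASC and 69.0 in MEF, against 227 and 50.4 CPM in QSC mouse 1 and mouse 3. This sum was lowest in ASC, which had the most Mef2c. Tie1 and Emcn were at 0 in ASC, and 3 endothelial markers each were at 0 in Pax7-positive iMPCs and in MEF. The part of endothelial cells in the Mef2c levels was not tested. The summed level of 13 immune markers was 20.3, 41.5, 24.3 and 12.1 CPM in the same order of lone libraries, against 217 and 83.9 CPM in QSC mouse 1 and mouse 3, and the B cell marker Ms4a1 was at 0 in all 6 libraries. Both sums and Mef2c were higher in QSC mouse 1 than in mouse 3, and their part in that difference was not tested. The sum of 19 differentiating muscle markers was 1545 CPM in Pax7-positive iMPCs, 5748 in Pax7-negative iMPCs, 33255 in ASC and 63.6 in MEF, against 274 and 89.9 CPM in QSC mouse 1 and mouse 3. It was highest in ASC and next in Pax7-negative iMPCs, as Mef2c was, and its part in the Mef2c differences was not tested. The sum of 7 fibroblast markers was 1988 CPM in Pax7-positive iMPCs, 7882 in Pax7-negative iMPCs, 630 in ASC and 15487 in MEF, against 1024 and 625 CPM in QSC mouse 1 and mouse 3, so the reporter-negative fraction had more of it than the reporter-positive one.

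**Figure D5:**
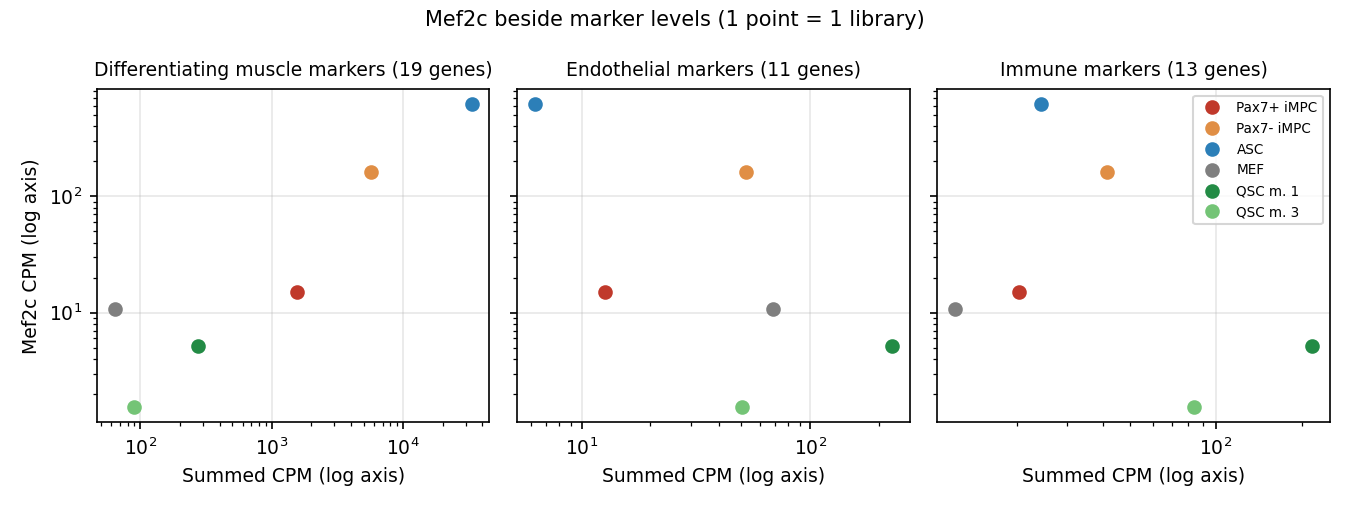
Mef2c CPM against the summed CPM of 19 differentiating muscle, 11 endothelial and 13 immune markers, 1 point per library, on log axes. ASC combines the highest Mef2c (621 CPM) with the highest muscle sum (33255 CPM) and the lowest endothelial sum (6.25 CPM).

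Genes with the most similar pattern were found by Pearson correlation of log2 CPM over the 6 libraries, among 9614 genes that reached 20 CPM in at least 1 library. The values describe 6 points that share depth and scaling, and carry no test. For Mef2c the closest were Gja5, a connexin gene (r = 0.998; 4.99 CPM in Pax7-positive iMPCs, 34.5 in Pax7-negative iMPCs, 184 in ASC and 2.95 in MEF, against 1.53 and 0.362 CPM in QSC mouse 1 and mouse 3), then Sh3bp5, Pgam2, Sema6d and Prkag3. For Mef2a they were Trim13 (r = 0.995), Casq1, Gjd4, Itgb4 and Myh7, and for Mef2d they were Foxo1 (r = 0.995), Chpt1, Deptor, Gpr155 and Fxyd6. By Spearman's rho, 32 genes for Mef2a, 76 for Mef2c and 43 for Mef2d were tied at rho = 1, so rank order over 6 libraries did not single out 5. Of the genes named, 3 of the 5 for Mef2a, 5 of the 5 for Mef2c and 2 of the 5 for Mef2d were among those tied. Among the 3 members, r was 0.94 for Mef2a with Mef2c, 0.03 for Mef2a with Mef2d and -0.25 for Mef2c with Mef2d over the same libraries.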

How the data were processed

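Raw counts of reads per Ensembl gene, not normalized, and an RPKM table with gene symbols were deposited by the authors for the 6 libraries. Counts divided by deposited RPKM and library total gave 1 length per gene in all libraries (largest relative deviation 5.55e-15), so RPKM is scaled by library total and length only. The build mm9 and the tools HTSeq 0.6.0, STAR 2.3.0, edgeR and Picard 1.100 are named per the submitters' processing notes; the order of use, annotation and strand setting are not stated there. Per the labels' protocols, the library kit marked strand.

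The counts were fitted with edgeR 4.0.16 under R 4.3.3 (default filter by group, TMM, quasi-likelihood F test, 1 coefficient per group, all 6 libraries, 1 residual degree of freedom) and limma 3.58.1, with Benjamini-Hochberg adjustment over 17116 genes at 0.05. DESeq2 1.42.0, other scalings, filters, a preset coefficient of variation of 0.4 and leaving out each QSC mouse were alternatives. Log2 CPM used a prior count of 2, and intervals are exact at 95%. The SE is the absolute log2 fold change divided by the square root of the F value. A fold against 0 counts used a floor of 3 counts over the group.

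The members and the lists (57 of 58 list entries and 77 of 77 markers matched by symbol) were chosen with earlier results of these data known, and support nothing beyond their own counts. Genes named from a list were the 2 with the largest called rise and the 2 with the largest called fall per comparison; the other genes named were chosen after their values were seen. Coordinates are of GRCm38.p6, from RefSeq, and were not matched to the mm9 files.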

Additional observations from a re-analysis of the deposited data

How the results depend on the processing

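No paired analysis was possible because the groups compared shared at most 1 replicate number. With library size scaling, Pax7-positive iMPCs had 0 Mef2 genes called against QSC, as Mef2c (log2 2.85) missed the threshold, and both Mef2d in ASC (0.26) and Mef2a in MEF (0.62) changed sign; QSC had the lowest TMM factors. Mef2a in MEF also changed sign without an expression filter (0.036). In MEF, 1 Mef2 gene was called with DESeq2 (Mef2d, -1.67), without a filter (Mef2c, 1.74) and with the preset coefficient of variation (Mef2c, 1.68). At 2-fold in place of 4-fold, the Mef2 genes past the rule of size numbered 3 in ASC versus MEF and 2 in each iMPC fraction versus ASC.

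Leaving out 1 QSC mouse gave, for Mef2c, 1.51 to 3.22 in Pax7-positive iMPCs, 4.95 to 6.66 in Pax7-negative iMPCs, 6.88 to 8.59 in ASC and 1.04 to 2.75 in MEF. For Mef2a it gave 0.29 to 0.66, 0.66 to 1.02, 1.80 to 2.17 and -0.19 to 0.17, and for Mef2d -1.44 to -1.12, -1.44 to -1.12, -0.47 to -0.16 and -1.74 to -1.42, in the same order; with 1 library a side these are values without a test. Targets called up in Pax7-positive iMPCs numbered 7 without a filter and 8 with the preset coefficient of variation, and 6 in Pax7-negative iMPCs with library size scaling, which left 2 called down in ASC and 3 in MEF. The preset coefficient of variation raised the calls over all genes to between 6334 and 6581 per comparison, and library size scaling cut those called down to between 329 and 531. The cause of these changes was not tested. Mef2c rests on 34 counts in QSC mouse 3, so its fold against QSC is less precise than those of Mef2a and Mef2d.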
